A study of Mus musculus with 2 samples.

Results

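Integrins are cell surface receptors made of 1 alpha and 1 beta subunit that bind the extracellular matrix outside the cell and the actin or keratin cytoskeleton inside it. The genes described here are 10 integrin subunit genes of the mouse, taken as the entries of the gene tables with the symbols Itga1, Itga2, Itga3, Itga5, Itga6, Itga9, Itgav, Itgb1, Itgb4 and Itgb6, each found once among the 31053 genes of the tables. Itgb1 encodes the beta1 subunit, whose antigen name is CD29, which is one of the 2 surface antigens by which the cells were sorted. The other 16 integrin subunit genes in the tables serve for comparison.

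Single cells of the mammary gland of C57BL/6 mice, sorted as CD24high and CD29+, were measured on the 10x Genomics platform, which counts 3' ends of polyA RNA, in 2 libraries. The genotype given for the first is WT and for the second Fgd5-ko, and the second is also named with cko, which usually stands for conditional knockout. The sources used here do not give the cells that carried the deletion, the deleted part of Fgd5, the meaning of P4 in both library names, the age of the mice or whether animals were pooled. The stated aim was to compare mammary basal epithelial cells with and without Fgd5, an activator of the small GTPase Cdc42. Each group is 1 library, so no difference between libraries could be tested, and every interval below is a 95% interval for counting error only.

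In the mammary gland, basal (myoepithelial) cells sit on the basement membrane and hold it through laminin receptors, of which alpha6 beta4 anchors keratin filaments at hemidesmosomes and alpha3 beta1 and alpha6 beta1 connect to actin. Luminal cells line the duct and touch the basement membrane less, and CD29 together with CD24 is a usual pair of antigens for telling basal from luminal cells by flow cytometry. The beta1 subunit pairs with many alpha subunits, whereas beta4 pairs only with alpha6 and beta6 only with alphav.

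The WT-labelled library comprised 10735 barcodes and 60566053 unique molecules (UMIs), and the Fgd5-ko-labelled library 8798 barcodes and 136697801 UMIs. A table of cells from the authors lists 6588 and 6064 of these barcodes, with medians of 4954 and 15712 UMIs per cell, so depth and label cannot be told apart. Of the listed cells, 6359 and 6029 were basal-like, with UMIs of 12 of 12 basal markers at a summed 27846 and 18992 CPM (UMIs of the markers as a share of all UMIs of the class, in parts per 1000000), against a summed 17.0 and 10.2 CPM of 8 endothelial markers and 189 and 242 CPM of 8 fibroblast markers. UMIs of luminal markers were more frequent in them, at a summed 1866 and 2355 CPM of 11 luminal progenitor and alveolar markers (Wap and Csn2 at 0 in the WT-labelled library) and 602 and 341 CPM of 11 hormone-sensing markers. Fgd5 itself went against the label: basal-like cells held 30 UMIs (0.840 CPM) in the WT-labelled library and 419 UMIs (4.05 CPM) in the Fgd5-ko-labelled library, and 3' tags outside a deleted part would not check a deletion. Directions between the libraries below are therefore directions between labels. Barcodes outside the authors' table that passed limits on UMIs and genes (3490 and 1626) gave the fibroblast-like (1055 and 573), endothelial-like (755 and 102), pericyte and vascular smooth muscle-like (74 and 33) and Schwann-like (54 and 23) cells used for comparison. The pericyte and vascular smooth muscle-like class, named after its marker list, is 1 cluster, led by Colec11, H2-M9 and Treml1. That list scored first in a cluster led by P2rx1, Rergl and Tesc (122 and 51 barcodes). It scored second in 1 led by Pln, Foxs1 and Olfr558 (53 and 47). Both were left unnamed, so levels of the class do not cover them, and vascular smooth muscle was not measured apart. Of the fibroblast-like and endothelial-like clusters, 5 led their second marker list by under 3 (log2) and are called below clusters with RNA of other classes. They were 2 fibroblast-like ones (led by Lum, Col1a2 and Mmp3 and by Ccl19, Serpina10 and Grem1), whose second list was basal. The other 3 were endothelial-like (led by Ptgds, Glycam1 and Oit1, by the neutrophil genes Ngp, Camp and S100a8 and by Mmrn1, Nts and Gm21541). Levels of the 10 subunits that rest on these 5 clusters are given with and without them, and shares of cells only with them. Without them, endothelial-like cells are those led by Gkn3, Sema3g and Bmx and by Sele, Vwf and Selp. In these names, RNA of other classes and basal RNA mean UMIs of genes of the second list. Whether the cells made that RNA themselves was not tested. Values without the 5 clusters leave out kinds of cell and are not levels cleared of RNA from other cells. Whether RNA of other classes or the kinds of cell left out changed a level was not tested. Other outside clusters fit no class by the naming rule (below) and were left out. Endothelial markers scored highest in those led by Hba-a2, Hbb-bs and Hba-a1 (454 and 100 barcodes) and by Car4, Cfd and Car3 (146 and 86). They also did in those led by 1810011H11Rik, Il2ra and Cyp26b1 (193 and 60) and by Ccl20, Marco and Msr1 (125 and 54). Endothelial-like levels do not cover these barcodes. The 2 libraries share 34 barcodes, and doublets were not removed.

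Levels in basal-like cells set Itgb1 and its laminin partner Itga6 well above the other subunits. In the WT-labelled library, Itgb1 stood at 453 CPM, Itga6 at 199 CPM and Itgav at 80.6 CPM. They were followed by Itga3 at 37.0 CPM, Itga1 at 33.2 CPM, Itgb4 at 27.2 CPM, Itga2 at 19.7 CPM and Itga9 at 18.5 CPM. Itga5 at 7.09 CPM and Itgb6 at 2.47 CPM were the lowest. The order in the Fgd5-ko-labelled library was the same except that Itga2 stood above Itgb4. Since each molecule gives 1 tag in a 3' assay, these levels compare genes without a correction for length, although they do not tell splice forms apart. The neighbours Itga2 (18.3 to 21.2 CPM) and Itga9 (17.1 to 19.99 CPM) had overlapping intervals in the WT-labelled library, whereas the intervals of Itga3 and Itga1 only touched near 35 CPM (35.0 to 39.0 and 31.3 to 35.1 CPM).

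**Figure D1:**
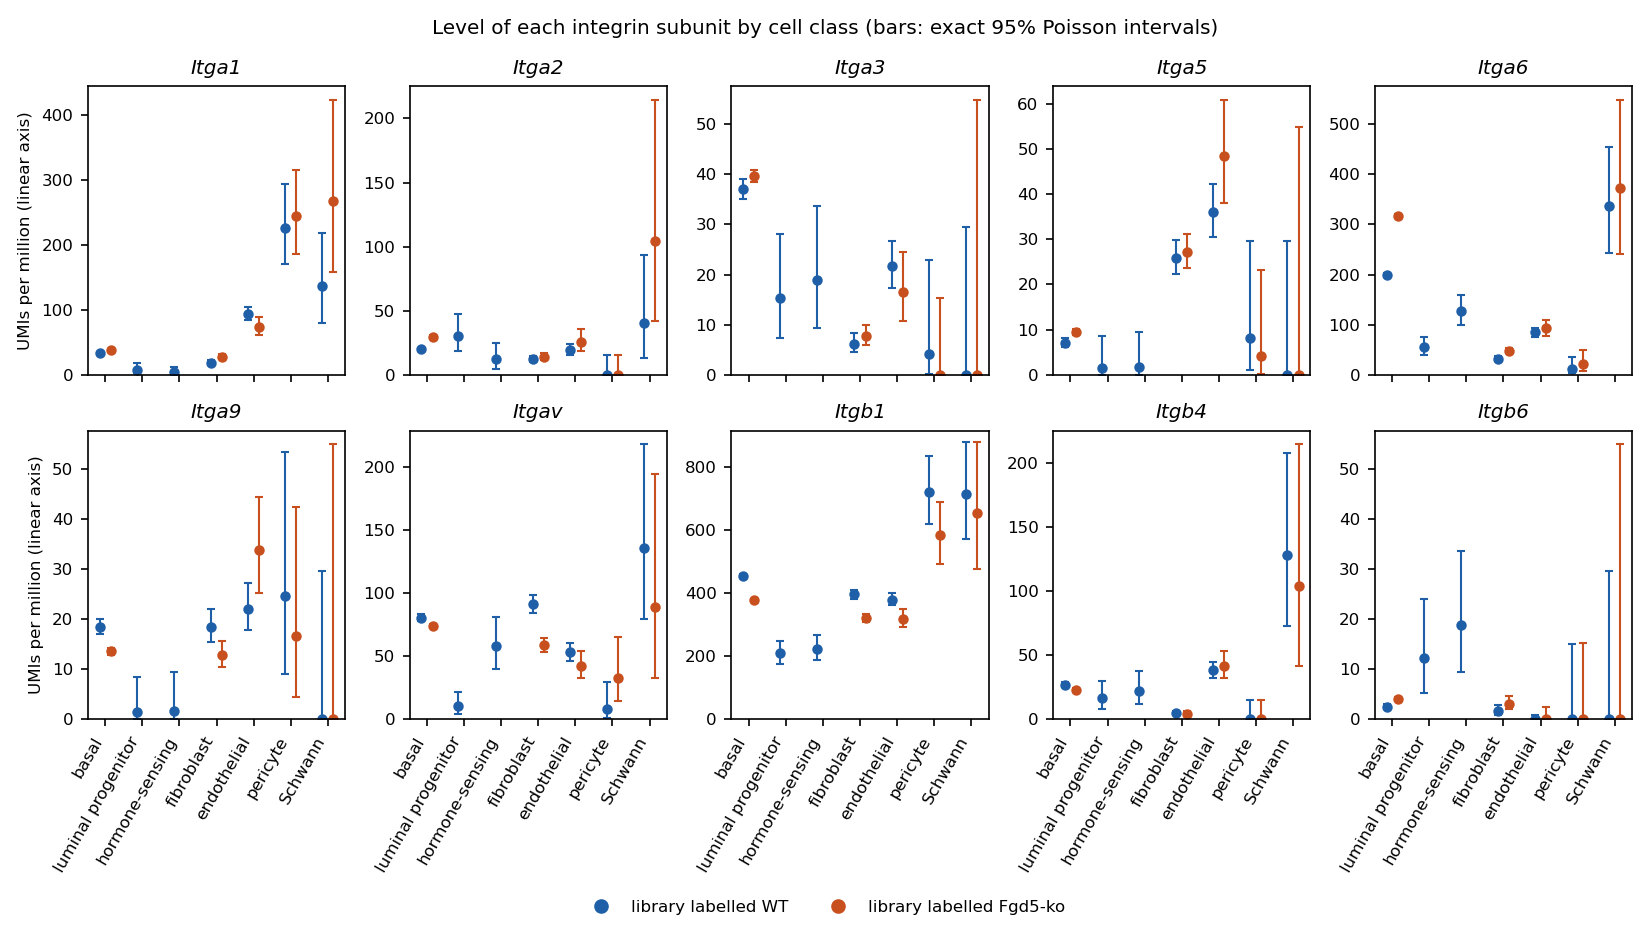
Level of each of the 10 integrin subunit genes in UMIs per 1000000 of the class (CPM, linear axis, its own scale for each gene) by cell class, with the WT-labelled library and the Fgd5-ko-labelled library as separate points; bars are exact Poisson intervals of 95%. Itgb1 stands highest in every class plotted, from 210.2 CPM in luminal progenitor and alveolar-like cells to 721 CPM in pericyte and vascular smooth muscle-like cells.

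Itgav had the profile over cell classes most like that of Itgb1, with all clusters of each class kept (below). Itga2 varied most among groups of basal-like cells beside Itga9. The promoters shown here are those of Itgb1, Itgav and Itga2. Each holds the 300 bases from 250 before to 50 after the start of the gene, read 5′ to 3′ on the strand of the gene, from RefSeq on build GRCm38.p6. Capitals mark the matches to 4 motifs searched on both strands: the SP1 box GGGCGG, the AP-1 element TGANTCA, the TEAD element GGAATG and the TATA box TATAAA.
Itgb1, chr8:128685404-128685703, + strand: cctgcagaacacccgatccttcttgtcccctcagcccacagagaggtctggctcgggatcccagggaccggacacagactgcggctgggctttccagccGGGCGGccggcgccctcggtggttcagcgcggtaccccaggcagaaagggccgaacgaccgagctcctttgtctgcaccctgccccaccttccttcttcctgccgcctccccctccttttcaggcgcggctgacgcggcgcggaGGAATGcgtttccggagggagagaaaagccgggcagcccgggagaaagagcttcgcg
Itgav, chr2:83724147-83724446, + strand: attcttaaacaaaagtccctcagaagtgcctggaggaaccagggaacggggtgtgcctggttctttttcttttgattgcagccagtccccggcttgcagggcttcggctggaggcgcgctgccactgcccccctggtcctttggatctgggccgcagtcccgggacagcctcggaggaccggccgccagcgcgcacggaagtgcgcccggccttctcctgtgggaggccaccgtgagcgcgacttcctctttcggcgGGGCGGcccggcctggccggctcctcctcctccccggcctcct
Itga2, chr13:114932051-114932350, - strand: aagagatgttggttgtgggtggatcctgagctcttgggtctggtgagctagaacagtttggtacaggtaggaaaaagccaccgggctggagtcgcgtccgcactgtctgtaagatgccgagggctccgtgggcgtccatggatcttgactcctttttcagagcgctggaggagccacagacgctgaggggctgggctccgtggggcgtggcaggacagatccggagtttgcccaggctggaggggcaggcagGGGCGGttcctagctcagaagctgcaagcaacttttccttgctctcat
All 3 windows hold 1 SP1 box, which 35.7% of 32851 promoters of the same length hold. The Itgb1 window also holds 1 TEAD element, found in 14.7% of promoters. None of the 3 holds the AP-1 letters (7.81% of promoters) or the TATA letters (13.6%), which says only that these letters are not in these windows. Promoters of Itga6 and Itgb4 are not shown.

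Itgb1, the beta1 subunit, was the most abundant of the 10 in every class. The gene lies on chromosome 8 from 128685654 to 128733200 on the + strand (GENCODE M21, build GRCm38). In the WT-labelled library, basal-like cells held 453 CPM (446 to 460, 16181 UMIs). Levels were 396 CPM in fibroblast-like, 380 CPM in endothelial-like, 721 CPM in pericyte and vascular smooth muscle-like and 713 CPM in Schwann-like cells. The luminal-like cells were lowest, with 210.2 CPM (177 to 248) in 118 luminal progenitor and alveolar-like cells and 224 CPM (187 to 266) in 53 hormone-sensing luminal-like cells. CD29 messenger thus set basal-like cells a log2 difference of 1.11 (0.87 to 1.36) and 1.02 (0.77 to 1.28) above these classes. Basal-like cells stood above fibroblast-like ones by a smaller log2 difference of 0.20 (0.14 to 0.25), and 0.23 (0.17 to 0.29) in the Fgd5-ko-labelled library, and below the pericyte and vascular smooth muscle-like and Schwann-like cells. Without the clusters with RNA of other classes, fibroblast-like cells held 382 CPM, still below basal-like cells, and endothelial-like cells 589 CPM (550 to 631), which places the latter above basal-like cells instead of below. The other sort antigen had the opposite order among epithelial cells: Cd24a, which encodes CD24, stood at 144 CPM in basal-like, 285 CPM in luminal progenitor and alveolar-like and 443 CPM in hormone-sensing luminal-like cells. The luminal-like cells had passed the gate, so these values describe sorted cells only. Krt14, a basal keratin gene, stood at 439 CPM in luminal progenitor and alveolar-like and 63.3 CPM in hormone-sensing luminal-like cells, beside 2643 CPM in basal-like cells. What part basal RNA or doublets had in the luminal-like levels was not tested.

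Between the libraries, Itgb1 was lower in the one labelled Fgd5-ko in listed basal-like cells and in the other classes compared. Basal-like cells held 378 CPM (374 to 382) there, a log2 ratio of -0.26 (-0.29 to -0.24) to the WT-labelled library. The log2 ratio was -0.30 (-0.38 to -0.22) in fibroblast-like and -0.25 (-0.40 to -0.10) in endothelial-like cells, and -0.30 (-0.63 to 0.02) in pericyte and vascular smooth muscle-like cells. Without the clusters with RNA of other classes it was -0.27 (-0.36 to -0.18) in fibroblast-like and -0.36 (-0.58 to -0.14) in endothelial-like cells. The intervals of these classes overlapped, inside and outside the epithelium. The 189 and 358 basal-like barcodes outside the authors' table did not show the difference, with 386 and 382 CPM and a log2 ratio of -0.01 (-0.10 to 0.07). Fibroblast-like cells of the 2 libraries fell largely into different clusters. Those led by Krtdap, Akr1c18 and Rorb held 369 and 3, by Smpd3, Il1r2 and Gm31378 270 and 9, and by Mrgprg, Ptx3 and Duoxa1 0 and 204. The cluster led by Crabp1, Scg3 and Hc held 218 and 188. What part this had in fibroblast-like ratios of any subunit was not tested.

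After thinning each cell to 2000 UMIs, 58.8% (lower bound 57.6%) of basal-like cells in the WT-labelled library and 52.5% (51.3 to 53.8%) in the Fgd5-ko-labelled library had an Itgb1 UMI (exact Clopper-Pearson intervals), with 61 and 0 shallower cells left out. Without thinning the order is the other way, 86.1% and 98.0%, at medians of 4947 and 15723 UMIs per cell. No class here lacks Itgb1, so a background share from free RNA could not be read for it.

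Itga6, the laminin-binding partner of beta1 and beta4 whose antigen name is CD49f, was the second most abundant subunit in basal-like cells. Its log2 ratio between the libraries was the highest among the 9 subunits that reached a mean of 5 CPM. The gene lies on chromosome 2 from 71745616 to 71858416 on the + strand, where Gm13663 and Gm13662 overlap it on the same strand. Whether the overlap raised or lowered its counts was not tested. Basal-like cells held 199 CPM (195 to 204) in the WT-labelled library and 317 CPM (314 to 321) in the Fgd5-ko-labelled library, a log2 ratio of 0.67 (0.63 to 0.71). The basal-like barcodes outside the authors' table had 207 and 359 CPM, a log2 ratio of 0.80 (0.68 to 0.91). The higher level in the Fgd5-ko-labelled library was present in both sets, and it was 0.55 among listed cells with 4000 to 12000 UMIs in either library.

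In the same library labelled WT, Itga6 stood at 84.6 CPM in endothelial-like (120.3 CPM without the clusters with RNA of other classes) and 32.0 CPM in fibroblast-like cells. It stood at 54.8 CPM (38.4 to 75.9) in luminal progenitor and alveolar-like cells and at 127 CPM (99.4 to 159) in hormone-sensing luminal-like cells, so the intervals of the 2 luminal-like classes did not overlap. Schwann-like cells had the highest level, 336 CPM (242 to 455) from 42 UMIs, and 372 CPM (241 to 549) in the Fgd5-ko-labelled library. Pericyte and vascular smooth muscle-like cells had 3 UMIs, or 12.3 CPM (2.53 to 35.9). The level in fibroblast-like cells depended on 2 clusters that also held basal RNA: without them it was 7.33 CPM in the WT-labelled library and 4.40 CPM in the Fgd5-ko-labelled library, and the log2 ratio between libraries turned from 0.56 to -0.74 (-1.50 to -0.00). Those levels are 3.68% and 1.39% of the basal-like level, beside 0.825% and 1.66% for Krt14. After thinning, 30.1% and 44.5% of basal-like cells had an Itga6 UMI, beside 3.54% and 4.602% of fibroblast-like cells. The median depths before thinning were 4947 and 15723 UMIs in basal-like and 6601 and 12767 UMIs in fibroblast-like cells.

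Itga3, which with beta1 forms a laminin receptor, differed little between the libraries. Basal-like cells held 37.0 CPM in the WT-labelled library and 39.7 CPM in the Fgd5-ko-labelled library, a log2 ratio of 0.10 (0.01 to 0.19) that is -0.07 under TMM scaling (below). Its level in fibroblast-like cells was 6.13 and 7.68 CPM, and 0.852 and 1.86 CPM without the 2 clusters that held basal RNA. Endothelial-like cells had 21.6 and 16.6 CPM, and 33.9 and 22.8 CPM without the clusters with RNA of other classes. The Schwann-like cells had 0 UMIs in both libraries. A count of 0 there allows up to 24.0 and 44.6 CPM.

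Itgb4, the hemidesmosome subunit that pairs with alpha6, was present in basal-like, luminal-like, endothelial-like and Schwann-like cells and low in the rest. Basal-like cells held 27.2 CPM (25.5 to 29.0) and 23.3 CPM (22.4 to 24.3), a log2 ratio of -0.22 (-0.33 to -0.11) for the Fgd5-ko-labelled library. In the WT-labelled library, luminal progenitor and alveolar-like cells held 16.8 CPM from 11 UMIs and hormone-sensing luminal-like cells 22.2 CPM from 13 UMIs. The log2 differences of basal-like cells from them were 0.70 (-0.15 to 1.71) and 0.29 (-0.49 to 1.20), intervals that include 0. Endothelial-like cells held 38.4 CPM (32.7 to 44.9) and 41.8 CPM (32.1 to 53.5), and 80.0 CPM (65.8 to 96.3) and 91.1 CPM (66.2 to 122) without the clusters with RNA of other classes. Without those clusters, the endothelial-like level was 294% and 391% of the basal-like one, whereas Krt14 was at 1.88% and 2.18% of its basal-like level in the same cells. Schwann-like cells held 128 CPM (73.2 to 208) from 16 UMIs and 104 CPM (41.9 to 215) from 7 UMIs. The Schwann-like cells also had UMIs of 11 and 9 of the 12 basal markers, at a summed 2450 and 744 CPM. Pericyte and vascular smooth muscle-like cells had 0 Itgb4 UMIs in both libraries, which allows up to 12.3 and 12.4 CPM. After thinning, 5.57% and 4.76% of basal-like cells had an Itgb4 UMI, against 0.491% and 0.885% of fibroblast-like and 10.9% and 10.0% of endothelial-like cells, whose median depths before thinning were 3316 and 8322 UMIs.

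The collagen receptors alpha1 and alpha2, both partners of beta1, differed in where they were found. Itga1 was high in pericyte and vascular smooth muscle-like cells, with 225 CPM (170 to 293) in the WT-labelled library and 244 CPM (186 to 315) in the Fgd5-ko-labelled library. Schwann-like cells had 136 CPM (79.3 to 218) from 17 UMIs and 268 CPM (159 to 423) from 18 UMIs. Endothelial-like cells had 94.1 and 73.6 CPM, and 170.0 and 147 CPM without the clusters with RNA of other classes. Basal-like cells had 33.2 CPM (31.3 to 35.1) and 37.6 CPM (36.5 to 38.8), a log2 ratio of 0.18 (0.09 to 0.28). The luminal-like cells held 5 and 2 UMIs, or 7.62 CPM (2.47 to 17.8) in the luminal progenitor and alveolar-like and 3.42 CPM (0.414 to 12.4) in the hormone-sensing cells. Every non-epithelial class but the fibroblast-like cells (18.7 and 27.9 CPM, and 14.998 and 15.6 CPM without the 2 clusters) thus stood above basal-like cells in Itga1, and the luminal-like classes stood lowest. Gm49395 and Pelo overlap Itga1 on the same strand, and whether the overlap raised or lowered its counts was not tested.

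Itga2 stood at 19.7 CPM (18.3 to 21.2) in basal-like, at 30.5 CPM (18.6 to 47.0) in luminal progenitor and alveolar-like and at 11.98 CPM (4.82 to 24.7, from 7 UMIs) in hormone-sensing luminal-like cells of the WT-labelled library. The intervals of both luminal-like classes included the basal-like level. Fibroblast-like cells had 11.98 and 13.9 CPM, and 11.2 and 11.8 CPM without the 2 clusters that held basal RNA. The pericyte and vascular smooth muscle-like cells had 0 UMIs in both libraries. In basal-like cells of the Fgd5-ko-labelled library it stood at 29.6 CPM (28.6 to 30.7), a log2 ratio of 0.59 (0.47 to 0.71). Among the 4453 and 1572 cells with 4000 to 12000 UMIs the log2 ratio was -0.10.

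Of the receptors for fibronectin and other RGD ligands, Itga5, the fibronectin receptor subunit, was higher in fibroblast-like and endothelial-like than in basal-like cells. Basal-like cells held 7.09 and 9.43 CPM, a log2 ratio of 0.41 (0.21 to 0.62), whereas fibroblast-like cells held 25.8 and 27.2 CPM and endothelial-like cells 36.0 and 48.4 CPM. Without the clusters with RNA of other classes the levels were 25.1 and 30.8 CPM in fibroblast-like and 53.3 and 62.1 CPM in endothelial-like cells. The log2 difference of basal-like from fibroblast-like cells was -1.86 (-2.14 to -1.58) in the WT-labelled library and -1.53 (-1.75 to -1.31) in the Fgd5-ko-labelled library. Each luminal-like class had 1 UMI. A microRNA gene, Mir6963, overlaps Itga5 on the same strand.

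Itgav, whose alphav subunit pairs with beta1, beta5, beta6 and beta8 among others, was found at like levels in basal-like (80.6 CPM) and fibroblast-like cells (91.4 CPM) of the WT-labelled library. In the Fgd5-ko-labelled library the levels were 74.0 CPM and 58.9 CPM. Without the 2 clusters that held basal RNA, fibroblast-like cells had 89.5 and 56.9 CPM. The log2 ratio between libraries was -0.12 (-0.19 to -0.06) in basal-like cells and -0.63 (-0.81 to -0.46) in fibroblast-like cells, and -0.65 (-0.86 to -0.45) in the latter without the 2 clusters that held basal RNA. Of the 8 subunits with a mean of at least 5 CPM in fibroblast-like cells, Itgav was the only one at least 1.5-fold lower in the Fgd5-ko-labelled library, beside 11.6% of all genes, and none was at least 1.5-fold higher, beside 14.7%. Without those clusters Itga6 was at least 1.5-fold lower too, from 43 and 26 UMIs. These fibroblast-like ratios compare cells that fell largely into different clusters in the 2 libraries (above). Luminal progenitor and alveolar-like cells had 7 UMIs, or 10.7 CPM (4.29 to 22.0), and hormone-sensing luminal-like cells had 58.2 CPM (40.3 to 81.3), so the intervals of these 2 classes did not overlap.

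Itgb6, the epithelial partner of alphav that activates latent TGF-beta, had the fewest molecules of the 10. Basal-like cells held 88 UMIs, or 2.47 CPM (1.98 to 3.04), in the WT-labelled library and 423 UMIs, or 4.09 CPM (3.71 to 4.50), in the Fgd5-ko-labelled library. Luminal-like cells were higher, at 12.2 CPM (5.26 to 24.0) from 8 UMIs and 18.8 CPM (9.40 to 33.7) from 11 UMIs. Luminal-like barcodes outside the authors' table had 2 UMIs (5.71 CPM) and 5 UMIs (4.11 CPM), so the luminal level rests on few molecules. Endothelial-like cells had 0 UMIs in both libraries, which allows up to 0.730 and 1.99 CPM, and 2.16 and 6.21 CPM without the clusters with RNA of other classes. Fibroblast-like cells had 1.67 and 3.13 CPM, and 1.70 and 3.38 CPM without the 2 clusters that held basal RNA. Itgb6 was below the minimum mean of 5 CPM between libraries and was not counted among the subunits called there.

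Itga9, which with beta1 binds tenascin-C, osteopontin and VCAM1, was the subunit with the lowest log2 ratio in basal-like cells. Levels were 18.5 CPM (17.1 to 19.99) in the WT-labelled library and 13.6 CPM (12.9 to 14.3) in the Fgd5-ko-labelled library, a log2 ratio of -0.45 (-0.58 to -0.31). Among cells with 4000 to 12000 UMIs the log2 ratio was 0.13. Fibroblast-like cells had 18.5 and 12.9 CPM (17.9 and 12.4 CPM without the clusters with RNA of other classes) and endothelial-like cells 22.1 and 33.8 CPM (30.3 and 37.3 CPM without them). The endothelial-like ratio made Itga9 the only 1 of 9 subunits at least 1.5-fold higher there in the Fgd5-ko-labelled library, beside 23% of genes, while 0 of 9 were lower, beside 9.9%. Without those clusters the log2 ratio of Itga9 was 0.30 (-0.58 to 1.13) and the call was lost. Itga2 (5.04 and 12.4 CPM, from 7 and 6 UMIs) was then at least 1.5-fold higher and Itgav (11.5 and 6.21 CPM, from 16 and 3 UMIs) lower, both with intervals that include 0. Each luminal-like class had 1 UMI, or 1.52 CPM (0.0386 to 8.49) and 1.71 CPM (0.0433 to 9.53).

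Of the subunits that reached a mean of 5 CPM, 2 of 9 (Itga2 and Itga6) were at least 1.5-fold higher in basal-like cells of the Fgd5-ko-labelled library, where 22.9% of 9410 genes were, and 0 of 9 were at least 1.5-fold lower, where 5.66% of genes were. Itga2 was at the limit, with a fold of 1.503. The median log2 ratio was 0.10 over the 9 subunits and 0.23 over all genes. TMM scaling shifts every log2 ratio by -0.17 and the median ratio of abundant genes by -0.10, and under both no subunit is at least 1.5-fold higher. Under the former Itga9 is 1.5-fold lower, with a log2 ratio of -0.62. Shares of all genes past the limits were not computed under either scaling. Itga6 stays highest among the 9 under each, at 0.50 and 0.57, and Itgb1 lower, at -0.43 and -0.36.

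**Figure D2:**
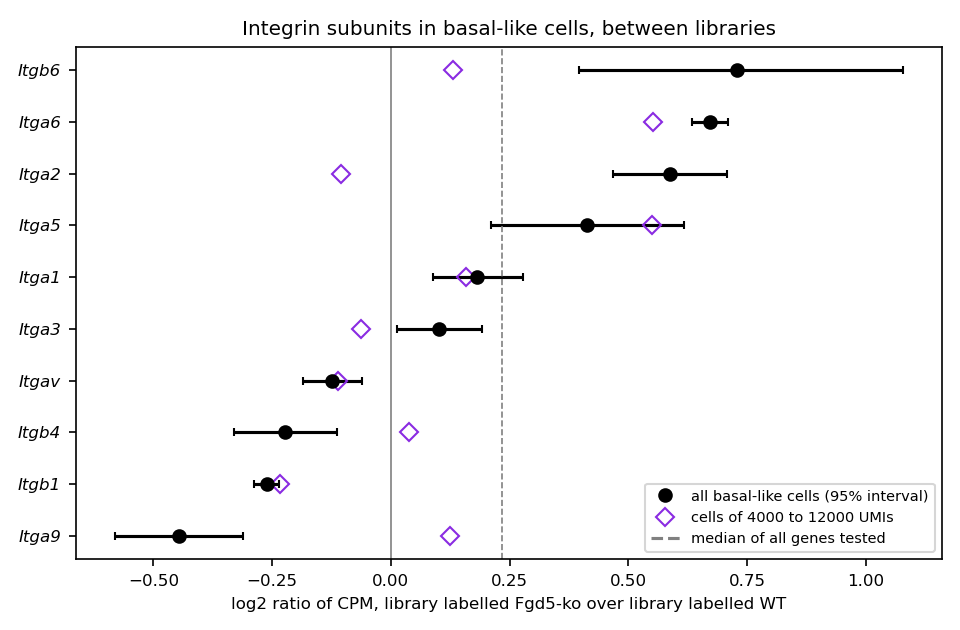
Log2 ratio of CPM, Fgd5-ko-labelled over WT-labelled library, of each subunit in basal-like cells (points, with exact conditional intervals of 95% for counting error) and in those with 4000 to 12000 UMIs (open diamonds); the dashed line is the median of all genes, 0.23. The diamonds of Itga2 (-0.10) and Itga9 (0.13) lie across 0 from their points (0.59 and -0.45), and those of Itga6 (0.55) and Itgb1 (-0.23) lie on the same side.

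Between classes, in the WT-labelled library, 3 of 9 subunits (Itga3, Itga6 and Itgb4) had a basal-like level at least 2-fold that of fibroblast-like cells, as 11.4% of genes did, and 1 (Itga5) was at least 2-fold lower, where 22.6% were. In the Fgd5-ko-labelled library, 4 of 9 were higher (Itga2 in addition), where 12.2% were, and Itga5 alone was lower, where 16.3% were. Against endothelial-like cells, only Itga6 of 9 was higher in the WT-labelled library (17.3% of genes) and Itga1 and Itga5 were lower (16.9%). In the Fgd5-ko-labelled library, Itga3 and Itga6 were higher (20.4%) and Itga5 and Itga9 lower (16.5%). Without the clusters with RNA of other classes, Itga6 (120.3 and 166 CPM in endothelial-like cells) was within 2-fold of the basal-like level, and so was Itga3. Itga2 (5.04 and 12.4 CPM) and Itgav (11.5 and 6.21 CPM) were then at least 2-fold higher in basal-like cells, and Itgb4 lower. In the Fgd5-ko-labelled library Itga1 (147 CPM in endothelial-like cells) was then at least 2-fold lower in basal-like cells too. Against fibroblast-like cells, Itga1 was then at least 2-fold higher too, since its fibroblast-like level was 14.998 CPM and 15.6 CPM.

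Against pericyte and vascular smooth muscle-like cells, the observed levels of basal-like cells of the WT-labelled library were at least 2-fold higher for 5 of 9 subunits (Itga2, Itga3, Itga6, Itgav and Itgb4, beside 16.5% of genes) and lower for Itga1 (24.4%). Itga2 had 0 UMIs in that class, which allows up to 12.3 CPM beside 19.7 CPM in basal-like cells. A 2-fold difference was thus not shown for it. Nor was it for Itga3 (1 UMI) and Itgb4 (0 UMIs), whose log2 differences had lower bounds of 0.69 and 0.85, under 2-fold. In the Fgd5-ko-labelled library 6 of 9 were higher, with Itga5 in addition (19% of genes), and Itga1 lower (20.7%). There Itgb4 had 0 UMIs, which allows up to 12.4 CPM beside 23.3 CPM. Itga5 had 1 UMI, with a log2 difference of 1.19 (-1.29 to 6.49). A 2-fold difference was not shown for either. Nor was it for Itgav (8 UMIs) and Itga2 (0 UMIs), whose log2 differences had lower bounds of 0.18 and 0.95, under 2-fold. Against Schwann-like cells, Itga1, Itga2 and Itgb4 (3 of 8) were at least 2-fold lower in either library, beside 31.1% of genes in the one labelled WT and 31.4% in the one labelled Fgd5-ko. The log2 difference of Itga2 was -1.02 (-2.25 to 0.60) in the WT-labelled library, from 5 UMIs, an interval that includes 0. Itga3 and Itga9 (2 of 8) had UMIs in basal-like cells and 0 in the Schwann-like cells, and are among the observed levels at least 2-fold higher, beside 14.4% and 26.5% of genes. With up to 24.0 and 44.6 CPM allowed by a count of 0, a 2-fold difference was not shown for either. These classes hold few cells, and most of their levels rest on under 60 UMIs.

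Against luminal progenitor and alveolar-like cells of the WT-labelled library, 6 of 9 subunits (Itga1, Itga3, Itga6, Itga9, Itgav and Itgb1) were at least 2-fold higher in basal-like cells, where 13.2% of genes were, and 1 (Itgb6) lower, where 14.7% were. Against hormone-sensing luminal-like cells, 3 of 9 (Itga1, Itga9 and Itgb1) were higher, where 16.6% of genes were, and Itgb6 lower, where 20.8% were. Several of these rest on 1 or 2 UMIs in the luminal-like class: the log2 difference of Itga9 was 3.60 (1.12 to 8.91) and 3.44 (0.95 to 8.74). The library labelled Fgd5-ko had 17 and 5 luminal-like cells, too few for a level under the limit of 20 cells.

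The basal-like cells were not uniform. They fell into 10 clusters, found with the integrin genes left out, and most clusters came mainly from 1 library: the largest held 4566 cells of the WT-labelled library (led by Gm26532, Gt(ROSA)26Sor and mt-Nd4l) and 2572 cells of the Fgd5-ko-labelled library (led by Malt1, Tnip1 and Birc3). Levels below are for clusters with at least 20 cells of a library. Itgb1 varied by 2.07-fold over the 5 clusters of the WT-labelled library and 1.85-fold over the 7 clusters of the Fgd5-ko-labelled library. Itga6 varied by 1.71-fold and 1.39-fold. The lowest Itga6 level in a cluster of the Fgd5-ko-labelled library, 277 CPM, was above the level in each of the 5 clusters of the WT-labelled library.

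Itga2 varied far more, by 6.74-fold and 3.92-fold. In the WT-labelled library it was 45.3 CPM (27.7 to 69.9) from 20 UMIs in 42 cells led by the histone genes Hist1h1b, Hist1h3c and Hist1h2ae. It was 15.2 CPM (13.6 to 16.8) in the largest cluster. It was lowest, at 6.72 CPM (2.70 to 13.8) from 7 UMIs, in 123 cells led by BC100530, Aldh3a1 and Adh1. In the Fgd5-ko-labelled library it was 48.3 CPM (45.3 to 51.4) in 1074 cells led by 1600014C10Rik, Col11a1 and Vcan and 47.1 CPM (42.2 to 52.4) in 324 cells led by the mitotic genes Cenpf, Ccnb1 and Cdc20. It was 12.3 CPM (10.3 to 14.6) in 937 cells led by Ankrd1, Gm8797 and Slpi. Clusters high in Itga2 were thus found in both libraries, among them cells led by the matrix genes Col11a1 and Vcan and cycling cells. The clusters differed in depth too, with medians of 17829 UMIs per cell in the cells led by 1600014C10Rik and 10078 in those led by Ankrd1.

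Itgb4 was low where Itga2 was high in most of these clusters. It was 15.05 CPM (13.4 to 16.8) in the cells led by 1600014C10Rik and 15.01 CPM (12.3 to 18.1) in those led by Cenpf, against 33.7 CPM (30.2 to 37.4) in the cells led by Ankrd1. The 254 histone-led cells of the Fgd5-ko-labelled library were an exception, at 34.8 CPM of Itga2 and 29.3 CPM of Itgb4. The highest level in each library was in a cluster led by BC100530, Aldh3a1 and Adh1, with 72.9 CPM (57.4 to 91.3) in 123 cells of the WT-labelled library and 46.3 CPM (32.4 to 64.1) in 44 cells of the Fgd5-ko-labelled library. That cluster also had the lowest Itgb1 of each library, 230.2 CPM (202 to 261) and 229 CPM (197 to 265). It had the lowest Itgav of each library as well, 38.4 CPM (27.4 to 52.3) and 50.2 CPM (35.7 to 68.6). Itga3 (25.9 and 23.2 CPM) and Itga5 (1.92 and 6.43 CPM) were also lowest there in each library. In the WT-labelled library the same held for Itga1, 9.59 CPM (upper bound 17.6), Itga2, 6.72 CPM, and Itga6, 152 CPM (129 to 177). Itga6 was 284 CPM in that cluster of the Fgd5-ko-labelled library, beside a lowest level of 277 CPM. In both libraries this cluster thus combined the highest Itgb4 with the lowest Itgb1.

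Itga9 was low in cycling cells and in those led by BC100530. In the cells led by 1600014C10Rik of the Fgd5-ko-labelled library Itga9 was also low, at 9.38 CPM (8.09 to 10.8). It was 3.74 CPM (2.44 to 5.48) in the cells led by Hist1h1b and 4.96 CPM (3.47 to 6.86) in those led by Cenpf of the Fgd5-ko-labelled library, against 24.0 CPM (21.1 to 27.1) in those led by Ankrd1. The 42 histone-led cells of the WT-labelled library had 0 UMIs (up to 8.35 CPM at the upper end of the exact interval), against 21.2 CPM (19.4 to 23.2) in the largest cluster. The cells led by BC100530 were as low, at 6.72 CPM (2.70 to 13.8) in the WT-labelled library and 5.14 CPM (1.40 to 13.2) in the Fgd5-ko-labelled library.

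**Figure D3:**
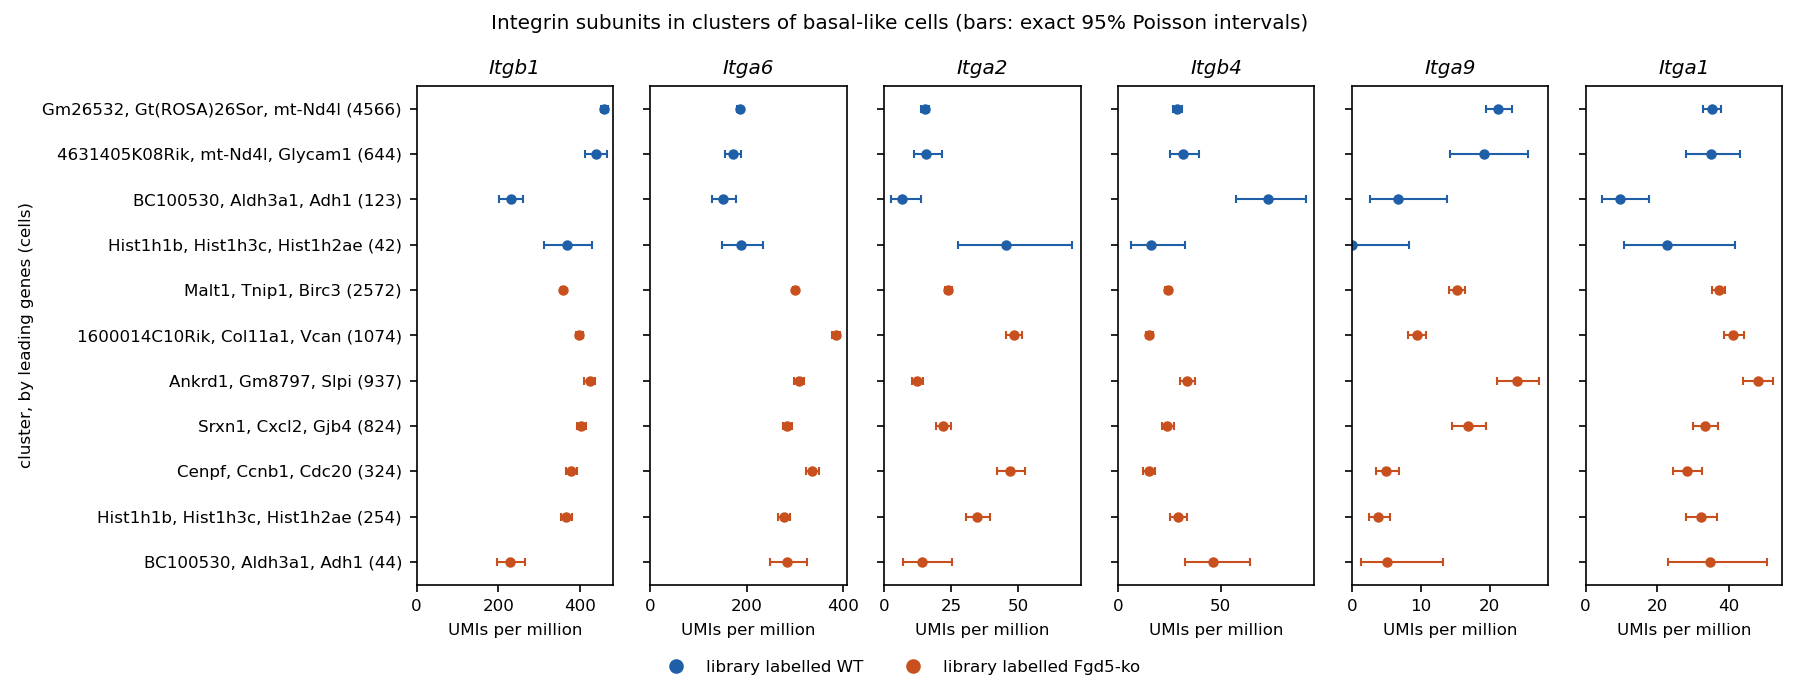
Level in CPM (linear axes) of 6 subunits in clusters of basal-like cells, by leading genes and number of cells, for each library, with 1 cluster of the WT-labelled library not drawn; bars are exact Poisson intervals of 95%. Itga2, Itga9 and Itgb4 spread widely over clusters, with Itga2 from 12.3 to 48.3 CPM in the Fgd5-ko-labelled library, while Itga6 stays between 277 and 386 CPM there.

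Levels also moved with depth per cell, which was not equal in the 2 libraries. Over 4 equal groups of basal-like cells ordered by UMIs, Itga2 was 15.6, 15.03, 16.8 and 25.2 CPM in the WT-labelled library and 18.1, 25.7, 32.6 and 33.3 CPM in the Fgd5-ko-labelled library. Itgb4 was 42.5, 26.8, 25.5 and 23.0 CPM in the WT-labelled library, and 25.9, 23.3, 22.3 and 23.1 CPM in the other. Itga9 was 20.7, 19.4, 22.0 and 15.2 CPM in the WT-labelled library and 20.7, 15.1, 11.1 and 12.1 CPM in the Fgd5-ko-labelled library. Itga2 was thus highest in the deepest cells of both libraries, whereas Itgb4 was highest in the shallowest. Itga6 was 179.7 CPM in the shallowest and 221 CPM in the deepest cells of the WT-labelled library, and 293 and 328 CPM in the other. Itgb1 had no such trend, at 438 to 459 CPM in the WT-labelled library and 370 to 388 CPM in the Fgd5-ko-labelled library. Whether depth took part in the differences of Itga2, Itga9 and Itgb4 between libraries was not tested.

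**Figure D4:**
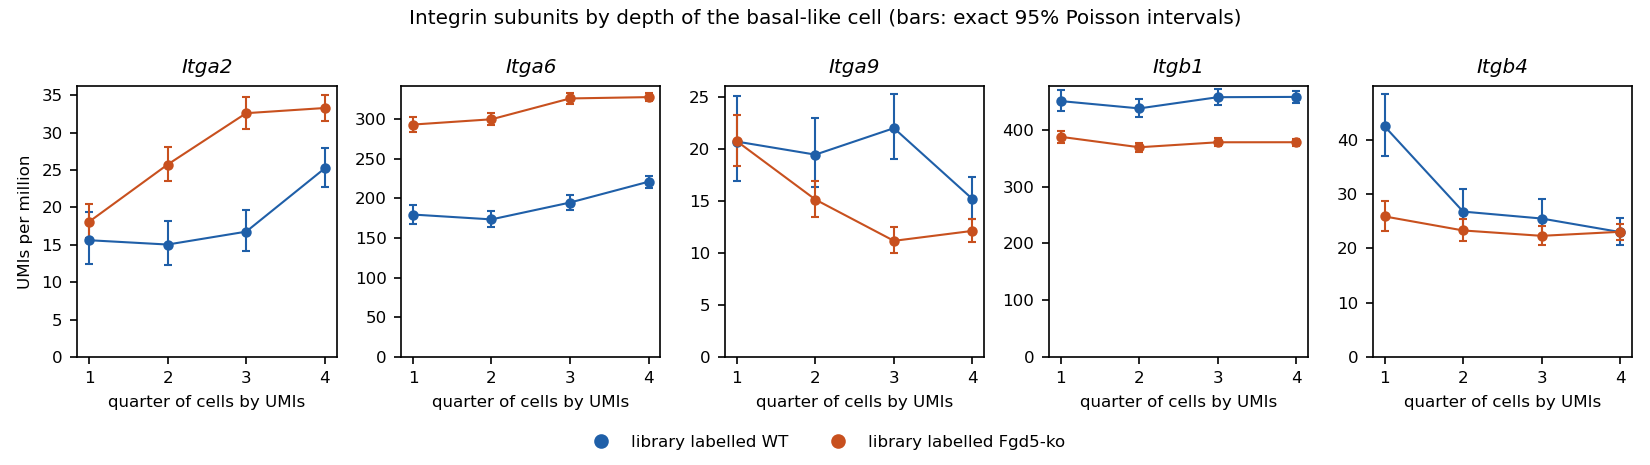
Level in CPM of 5 subunits in 4 equal groups of basal-like cells ordered by UMIs per cell, from the shallowest to the deepest, in each library; bars are exact Poisson intervals of 95%. In the WT-labelled library, Itgb4 goes from 42.5 to 23.0 CPM, while Itgb1 stays between 438 and 459 CPM.

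Over 9 profiles of a class in a library with at least 100 cells, the gene most like Itgb1 among 5685 genes was another subunit, Itgav, with a Pearson correlation of 0.95 of log2(CPM + 1). It was followed by Mob1b (0.93) and Reep3, Prkacb and Tpm4 (each 0.89). Itgb4 was most like Prrg2 (0.98), Bcam (0.97), which encodes a laminin-binding cell surface protein, St8sia6 (0.97), Magi1 (0.96) and Dsg2 (0.96), which encodes a desmosomal cadherin. Its correlation with Itga6, its only partner, was 0.65. Itgb6 was most like Cfap20 and B230118H07Rik (each 0.97), and Mnat1, Mettl26 and Clmn (each 0.96), with few UMIs behind it. These are descriptions over profiles that share libraries, depths and cell classes. The profiles keep the clusters with RNA of other classes, and the correlations were not computed without them. Without those clusters, endothelial-like Itgb1 was higher, at 589 and 460 CPM instead of 380 and 319 CPM. Itgav was lower there, at 11.5 and 6.21 CPM instead of 53.3 and 42.4 CPM.

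Of the 16 other integrin subunits, 5 had a mean of at least 5 CPM in basal-like cells, of which 1 was at least 1.5-fold higher (22.9% of all genes were) and 1 lower (5.66%) in the Fgd5-ko-labelled library, and their median log2 ratio was -0.29. Itga8, a partner of beta1 that binds nephronectin, was the higher one, with 15.4 and 38.9 CPM, a log2 ratio of 1.34 (1.21 to 1.47). The lower one was Itga2b, an alpha subunit known from platelets, with 14.5 and 8.77 CPM, named after its values were seen. The alphav partners Itgb5 (42.9 and 35.0 CPM, log2 ratio -0.29) and Itgb8 (29.2 and 37.0 CPM, log2 ratio 0.34) both stood above Itgb6 in basal-like cells. Outside the epithelium, Itgb5 stood at 89.1 and 82.2 CPM and the collagen receptor subunit Itga11 at 54.3 and 42.6 CPM in fibroblast-like cells. Itga7, a laminin receptor subunit of muscle, stood at 86.0 CPM (53.2 to 131) in pericyte and vascular smooth muscle-like cells of the WT-labelled library. Itgb8 stood at 256 CPM (175 to 362) in Schwann-like cells. Itga4 reached 52.1 CPM from 4 UMIs in 27 B cell-like cells.

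Ligands and partners of the subunits were read in basal-like cells from lists, with the same 1.5-fold limits, and the counts stand beside 22.9% of all genes higher and 5.66% lower. Of 16 laminin and basement membrane genes, 12 had a mean of at least 5 CPM, of which 3 were higher, a share near that of all genes, and 1 lower in the Fgd5-ko-labelled library, with a median log2 ratio of 0.21. The laminin alpha chains differed in direction: Lama1 was at 35.8 and 82.2 CPM (log2 ratio 1.20) and Lama3 at 66.1 and 117 CPM (0.83), whereas Lama5 was at 43.4 and 21.5 CPM (-1.01). Of 15 other matrix ligands, 9 were counted, of which 1 was higher (22.9% of all genes) and 4 lower (5.66%), with a median of -0.45. Vcam1, a ligand of alpha9 beta1 and alpha4 beta1, was at 38.7 and 87.6 CPM (1.18), Postn, which encodes periostin, at 459 and 288 CPM (-0.67) and Fbn1, which encodes fibrillin-1, at 31.5 and 46.4 CPM (0.56).

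Inside the cell, 21 of 24 genes of integrin activation and the adhesion complex were counted, of which 5 were higher, near the 22.9% of all genes, and 0 lower (5.66% of all genes), with a median of 0.22 beside the 0.23 of all genes. The largest differences there were of Tln2 (0.97), which encodes a talin, Fermt1 (0.92), which encodes a kindlin, and Bcar1 (0.81), an adhesion docking protein. All 8 hemidesmosome and laminin receptor partners were counted, of which 1 was higher (22.9% of all genes) and 2 lower (5.66%), with a median of -0.20. Col17a1, the hemidesmosomal collagen XVII, was at 174 and 104 CPM (-0.74), the tetraspanin gene Cd81 at 331 and 207 CPM (-0.68) and Dag1, which encodes the laminin receptor dystroglycan, at 160.2 and 251 CPM (0.65). Of 10 integrin inhibitors and trafficking genes, 8 were counted, of which 1 was higher (22.9% of all genes) and 0 lower (5.66%), with a median of 0.12. Dok1 stood at 0.73, Itgb1bp1 at 0.29 and Rab21 at -0.21, all as log2 ratios.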

How the data were processed

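The authors deposited raw UMI counts for each gene in each barcode, from a Cell Ranger program (version 3.1.0, per the file headers), and a table that lists the barcodes of cells with t-SNE scores, of which only the list was used. Build mm9 and the tools Cell Ranger and Seurat 3.0 stand in the submitters' processing notes; the sources used here do not give the annotation. Gene positions come from GENCODE M21 on GRCm38, matched by gene ID (30934 of 31053), and promoters from RefSeq, where 8 of the 10 subunits were found.

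The integrin subunits, the gene lists and the tests were chosen with earlier results of these data known. Barcodes outside the authors' table needed 1000 UMIs, 500 genes and no more than 15% of UMIs from mitochondrial genes. Cells, scaled to 10000 counts and log-transformed, were clustered by the Leiden algorithm (2000 variable genes without 27 integrin genes, 30 components, 15 neighbours, resolution 1, and 0.5 for basal-like cells). A cluster took the name of the highest of 12 marker lists where its lead over the second was 1 or more (log2), 3 or more of its markers were found in 10% of cells and its top 10 genes held no more markers of another class; this rule was set after the data were seen. The 5 clusters called here clusters with RNA of other classes are 2 fibroblast-like and 3 endothelial-like ones. Their lead over the second list was under a margin of 3, and the name rests on that margin alone. This limit was also set after the data were seen. Separate values of 1 basal-like cluster of the WT-labelled library are not reported here; the ranges over clusters include it. Doublets were not removed, and whether they took part in any level was not tested.

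UMIs were summed per class and library and divided by the class total (CPM). No test was possible with 1 library in each group. Intervals at 95% (exact Poisson for CPM, Clopper-Pearson for shares, exact conditional for ratios) cover only counting error. An observed 0 is read as at most 3 counts. Named were the 10 subunits, Cd24a and Fgd5, the 3 genes of each list with the largest absolute log2 ratio at a mean of at least 20 CPM, other subunits reaching 50 CPM in a class, and the 5 genes most like Itgb1, Itgb4 and Itgb6; genes that lead clusters, Krt14 and Itga2b were named after their values were seen. Alternatives were other scalings, depths, cell sets, clusterings and limits. Tools were scanpy 1.11.5, leidenalg 0.10.2 and igraph 0.11.9 for clustering, SciPy 1.17.1 and NumPy 2.4.6 for intervals under Python 3.11.15, matplotlib 3.10.9 for plots, and edgeR 4.0.16 for TMM factors only. The summing and interval steps were tested on simulated data.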

Additional observations from a re-analysis of the deposited data

Results flagged for a closer look

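Itga1, the collagen receptor subunit, had a log2 ratio of -0.35 (-0.67 to -0.05) between the Fgd5-ko-labelled library and the WT-labelled library in endothelial-like cells, opposite in sign to the 0.18 (0.09 to 0.28) of basal-like cells. Without the clusters with RNA of other classes it was -0.21 (-0.61 to 0.18), an interval that includes 0. Itga9 had a log2 ratio of 0.61 (0.09 to 1.12) in endothelial-like cells, opposite to the -0.45 of basal-like cells, and 0.30 (-0.58 to 1.13) without those clusters. It was 1 of 9 subunits at least 1.5-fold higher in endothelial-like cells of the Fgd5-ko-labelled library, where 23% of genes were, and 0 of 9 were lower, where 9.9% were. Without those clusters that call was lost. Each class of a library is 1 sample, so these differences between classes were not tested.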

How the results depend on the processing

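Of the 10 subunits, Itga1, Itga5, Itga6, Itgav, Itgb1 and Itgb6 kept the sign of their log2 ratio in basal-like cells under the 10 alternatives run. Itga2 turned to -0.10 among cells with 4000 to 12000 UMIs (4453 and 1572 cells), where Itga9 was 0.13, Itgb4 0.04 and Itga3 -0.06. Itga6 ranged from 0.50 to 0.70 and Itgb1 from -0.43 to -0.23. The count of subunits at least 1.5-fold higher (2) was 0 under TMM scaling, 0 under the median ratio, 0 among cells with 4000 to 12000 UMIs, 1 as a mean over cells and 1 without the cycling clusters, an alternative added after the data were seen. The count at least 1.5-fold lower (0) was 1 under TMM scaling. The count higher than in fibroblast-like cells of the WT-labelled library (3) was 5 at 1.5-fold. The count higher than in endothelial-like cells there (1) was 2 without the clusters with RNA of other classes and 3 at 1.5-fold, and in the Fgd5-ko-labelled library (2) it was 1 among outside barcodes of at least 2000 UMIs. The count higher than in hormone-sensing luminal-like cells (3) was 5 with luminal-like barcodes from outside the table. Shares of all genes were not computed under the alternatives, so a change in a count cannot be told from a shift of all genes. No paired analysis was possible because each group has 1 library. Depth limits Itgb6 and all values of luminal-like, pericyte-like and Schwann-like cells, most of which rest on under 60 UMIs.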
